A study of Mus musculus with 319 samples.

Results

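The collagen genes were taken as every probe whose platform symbol starts with Col and a digit and contains the letter a and a digit. This gave 39 of the 23382 probes on the array, and all 39 passed the filter for values on at least 80% of arrays, which 23190 probes passed in all. Of these, 36 probes had a gene ID listed for the mouse and stood for 34 genes. The other 3 carried the symbol Col1a1 with a gene ID that was not in the mouse table, and they were kept apart from the gene-level values. RNA from muscle was measured on 319 arrays (1 animal number was given to a pair of them), each comparing the Cy3-labelled RNA of an animal with a Cy5-labelled pool made from all animals. The animals were F2 offspring of C57BL/6J and C3H/HeJ, of both sexes, all on an ApoE null background that impairs the clearance of plasma lipoproteins, and all on a high-fat diet of the Western type from 8 to 24 weeks of age. There was no animal with functional ApoE, no other diet and no parental strain, so the arrays formed a single group and every relation below is one between animals. Sex was not a covariate in any fit or correlation, and its part in these relations was not tested. The labels give no genotype and do not say whether the pair of arrays with a shared number came from 1 animal. That pair correlated at r = 0.535 over probes, a value that 8.8% of all pairs of arrays exceeded, and both arrays were kept. No other array is a repeat by the labels, so the error of a single measurement is not known.

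Collagens are triple helices of chains that carry long repeats with glycine at every turn. Fibrillar collagens are secreted by fibroblasts and form the cables of tendon and of the connective sheaths around muscle fibres. Type IV collagen is a sheet-forming network in the basement membrane on each fibre and capillary, and type VI collagen forms beaded microfibrils that link the basement membrane to the fibrils. Cartilage has its own fibrillar and associated collagens, and the transmembrane collagens sit on cell surfaces, as in the hemidesmosomes of skin.

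The deposited values were log10 ratios, turned into log2 ratios here, and a positive value means that the transcript was more abundant in an animal than in the pooled RNA. The direction came from Eif2s3y, a gene on the Y chromosome, whose log2 ratio had a median of -5.62 on 164 arrays and of 1.08 on 155, and which never exceeded 1.49, so no array lay at mirrored values. Of the ratios on all arrays, 0.654% were blank. The SD over the probes of an array ranged from 0.213 to 1.08, and array medians from -0.08 to 0.14. Across probes, 3735 of 50721 pairs of arrays had a correlation under -0.3, the lowest at -0.601. The first principal component held 18.3% of the variance, and 56 arrays lay above a split in a lymphocyte marker score. Because every value is a ratio to the pool, the files hold no level by which one collagen could be ranked above another or muscle markers shown to be present.

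Collagen transcripts varied more between animals than most. The SD of the 39 probes over arrays had a median of 0.335, beside 0.227 over all probes tested, and 28 of 39 lay above that median of all probes. The range from the 5th to the 95th percentile was over 1 log2 unit for 19 of 39 collagen probes and for 23.4% of all probes. A mixture of 3 equally spaced classes, the shape that an F2 cross gives a transcript ruled by 1 gene of large additive effect, was called for 0 of 39, beside 103 (0.444%) of all probes. No collagen value reached the limits of the deposited scale. Col27a1 was read on 316 arrays and every other collagen probe on 319.

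**Figure D1:**
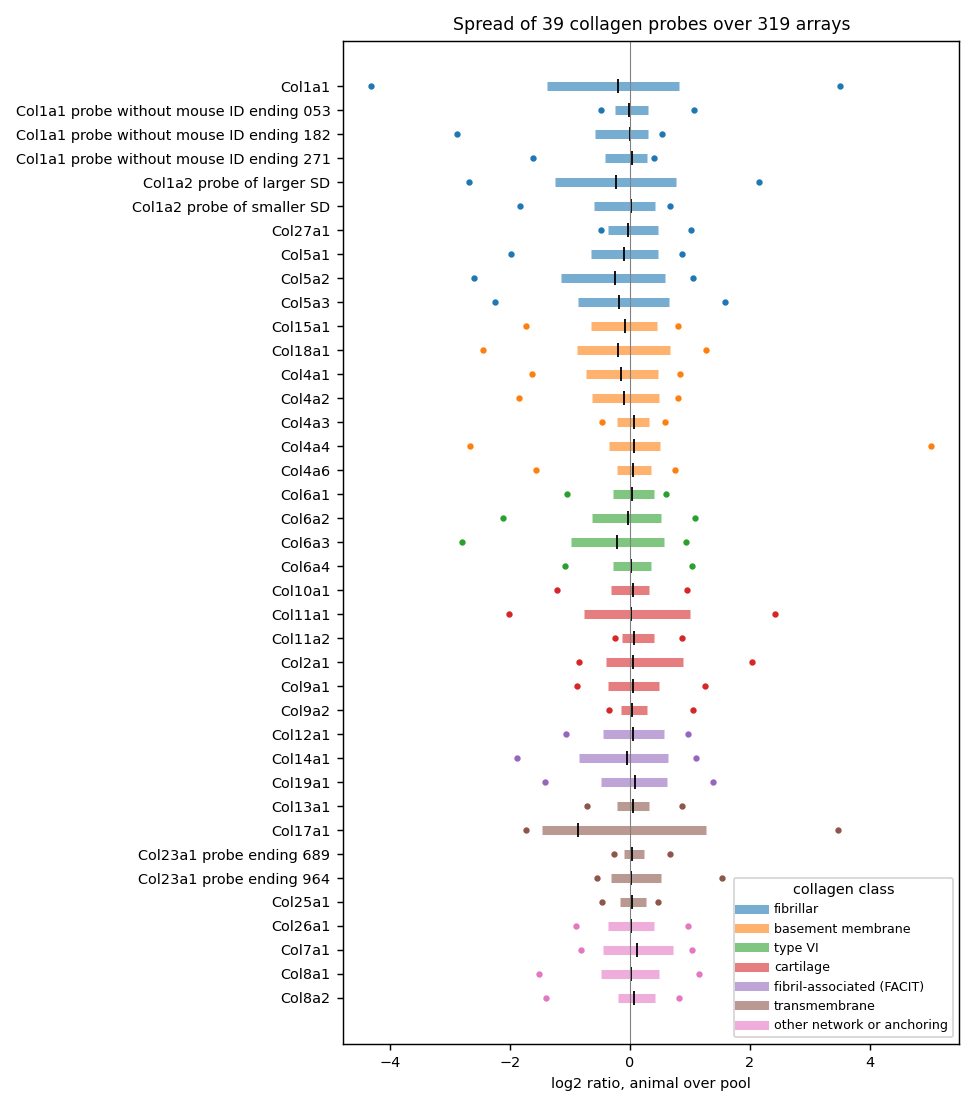
Log2 ratio of animal over pool (x axis) for the 39 collagen probes (y axis), coloured by class. Bars run from the 5th to the 95th percentile over 319 arrays, black ticks are medians and dots mark the lowest and highest array; Col17a1 and Col1a1 have the longest bars, and Col17a1 has a median of -0.86.

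Among the fibrillar collagens, Col1a1 and Col1a2 encode the chains of type I collagen, the main collagen of tendon and muscle sheaths. The log2 ratio of Col1a1, read with the probe that has a mouse gene ID, was -4.31 on the lowest array, -0.19 at the median and 3.50 on the highest, with an SD of 0.762. Its 5th and 95th percentiles were 4.61-fold apart. Col1a2 had a pair of probes. The probe of larger SD (0.614) ran from -2.69 through a median of -0.23 to 2.16, and the probe of smaller SD (0.335) from -1.83 through 0.02 to 0.66. These 2 probes of the same gene did not follow each other (r = -0.05). The first correlated with Col5a1 at r = 0.74 and the second at r = -0.02. A value averaged over both therefore mixes unlike readings, and results for Col1a2 are given for the probe of larger SD unless the gene average is named. The 3 probes with the symbol Col1a1 and no mouse gene ID also disagreed with the mouse probe of that name. One of them, whose name ends in 182, had a tail that split its arrays into separate sides, with a lowest value of -2.88 and a median of 0.00. The probe ending in 182 correlated with the mouse Col1a1 probe at r = -0.35 and with the probe ending in 271 at r = 0.85. The probes ending in 053 and 271 correlated with the mouse Col1a1 probe at r = 0.13 and -0.31.

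Type V collagen is built into type I fibrils and limits their width. Its chain gene Col5a1 ran from -1.98 through a median of -0.09 to 0.87, Col5a2 from -2.59 through -0.25 to 1.05, and Col5a3 from -2.25 through -0.17 to 1.58. All of them reached further below the pool than above it. The chain genes of type V that pair in 1 molecule, Col5a1 and Col5a2, varied together closely (r = 0.822, Spearman rho = 0.826, two-sided permutation p = 1e-05, the smallest that 100000 resamples can give). Col1a1 and the gene average of Col1a2 correlated less, at r = 0.621 and rho = 0.498 (permutation p = 1e-05), and Col1a1 with the probe of larger SD at r = 0.77. Col27a1, a fibrillar collagen known from cartilage, ran only from -0.49 through -0.03 to 1.02 and had no correlation over 0.5 with any other collagen gene. The 6 measured genes of this class had the highest mean pairwise correlation of the 7 classes, 0.532 over 15 pairs (SD 0.218, lowest 0.178, highest 0.822). Col1a2 entered that mean as its gene average. Over all pairs of the 10755 named genes the median r was 0.0006 and 4.79% of pairs exceeded 0.5. Col3a1 and Col24a1 were not analysed here.

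The region upstream of the start is shown for Col1a2 and Col5a1, members of the group that moved together, from position -250 to -1 counted from the listed start (RefSeq, build GRCm38.p6). The listed start of Col5a1 lies inside the gene as annotated, so its window is shown only up to the base before the gene, 206 bases in all. Col1a2 is at chr6:4505368-4505617 and Col5a1 at chr2:27886175-27886380, both on the plus strand. Capitals mark the letters of a GC box (GGGCGG) or a CCAAT box (CCAAT) on either strand.
Col1a2: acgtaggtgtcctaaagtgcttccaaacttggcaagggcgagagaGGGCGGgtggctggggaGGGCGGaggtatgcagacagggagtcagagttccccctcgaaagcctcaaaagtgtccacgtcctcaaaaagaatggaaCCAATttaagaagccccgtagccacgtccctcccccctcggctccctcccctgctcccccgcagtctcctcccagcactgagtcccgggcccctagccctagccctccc
Col5a1: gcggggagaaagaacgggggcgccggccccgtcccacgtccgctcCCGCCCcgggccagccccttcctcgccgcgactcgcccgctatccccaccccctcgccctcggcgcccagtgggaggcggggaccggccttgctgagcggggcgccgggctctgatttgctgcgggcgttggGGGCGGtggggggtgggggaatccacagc
The Col1a2 window held 2 GC boxes and 1 CCAAT box at 62% G and C, and the Col5a1 stretch 2 GC boxes at 77.7%. No match overlapped another. Over whole windows, a GC box was present in 18 of the 30 (60%) given for 27 collagen genes and in 32.7% of all 32851 windows. A CCAAT box was in 11 of 30 and 33.8%, and a TATA box (TATAAA) in 4 of 30 and 12.4%. The collagen windows had a median of 60% G and C, beside 52.4% for all windows. A match of letters is a description and does not show that a factor binds there.

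Basement membrane collagens fell into chains that moved together and chains that did not. Col4a1 and Col4a2, the chains of the common type IV network, are adjacent genes. Col4a1 ran from -1.63 through a median of -0.14 to 0.83 and Col4a2 from -1.84 through -0.10 to 0.80. Each was the other's closest of 10754 genes (r = 0.903, rho = 0.891, permutation p = 1e-05). Col15a1 and Col18a1, a related pair with interrupted helices that bind the basement membrane to the matrix outside it, ran from -1.72 through -0.08 to 0.80 and from -2.44 through -0.19 to 1.27. Their correlation was 0.765 (rho = 0.765, permutation p = 1e-05). Col4a3 and Col4a4, adjacent genes whose chains replace the common ones in the kidney filter and a few other basement membranes, had no such relation (r = -0.0885, rho = -0.00536, permutation p = 0.114, adjusted over 15 pairs 0.122). Col4a3 stayed between -0.46 and 0.59 with a median of 0.07. Col4a4 had a median of 0.08, a lowest array at -2.66 and a highest at 5.03, with an SD of 0.451. With array medians subtracted, the Col4a3 and Col4a4 correlation was -0.135 (adjusted permutation p = 0.0202). Col4a6, a chain of smooth muscle basement membranes, ran from -1.56 through 0.06 to 0.74 and had no correlation over 0.5 with another collagen. Over the 7 genes the mean pairwise r was 0.186 (SD 0.407, lowest -0.255, highest 0.903).

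Type VI collagen gave the tightest pair. Col6a1 varied little, from -1.04 through a median of 0.04 to 0.61 (SD 0.212). Its neighbour on chromosome 10, Col6a2, varied more, from -2.11 through -0.04 to 1.08 (SD 0.377). These genes encode chains that combine with the Col6a3 chain in 1 molecule, and they were each other's closest gene of 10754 (r = 0.914, rho = 0.908, permutation p = 1e-05). Per 1 SD of Col6a1, Col6a2 rose by 0.34 ± 0.0087 log2 units (limma slope ± SE, adjusted p = 9e-122). Col6a3 ran from -2.80 through -0.21 to 0.94 and followed Col6a1 at r = 0.617 (rho = 0.639, permutation p = 1e-05). It lay closer to the type V chain gene Col5a2 (r = 0.90). Col6a4, an alternative chain of the family, ran from -1.08 through 0.02 to 1.04 and showed no detectable relation to Col6a1 (slope 0.0001 ± 0.012, limma adjusted p = 0.99). The class mean was 0.323 over 6 pairs, with a range from -0.325 to 0.914.

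Upstream windows of this pair, for Col6a2 that of the more upstream of its 2 listed starts, are shown because their transcripts varied most alike. Both lie on the minus strand of chromosome 10, Col6a1 at chr10:76726045-76726294 and Col6a2 at chr10:76623631-76623880 (RefSeq, GRCm38.p6), with capitals as above.
Col6a1: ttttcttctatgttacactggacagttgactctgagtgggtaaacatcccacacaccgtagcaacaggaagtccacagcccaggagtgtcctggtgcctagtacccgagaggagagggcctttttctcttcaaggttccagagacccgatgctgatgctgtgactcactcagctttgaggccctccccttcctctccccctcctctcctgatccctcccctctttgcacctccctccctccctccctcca
Col6a2: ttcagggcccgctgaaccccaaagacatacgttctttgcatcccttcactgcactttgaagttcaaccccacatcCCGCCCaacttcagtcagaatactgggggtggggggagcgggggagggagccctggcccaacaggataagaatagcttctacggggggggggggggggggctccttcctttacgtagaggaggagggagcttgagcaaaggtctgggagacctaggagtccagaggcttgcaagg
The letters of the 3 boxes searched were not in the Col6a1 window, and Col6a2 held 1 GC box.

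The cartilage collagens did not vary as a group. Their 6 measured genes had a mean pairwise r of -0.0017 over 15 pairs, from -0.394 to 0.573, and this mean was 0.0237 without the arrays of outlying SD. Col11a1, a chain found inside cartilage fibrils and in developing tendon, varied most. It ran from -2.01 through a median of 0.03 to 2.41 (SD 0.559). Its partner gene in type XI collagen, Col11a2, stayed between -0.25 and 0.86 with a median of 0.06 (SD 0.16). The partners were not correlated detectably (r = 0.0338, rho = 0.0436, permutation p = 0.547). With quantile normalization this value was 0.184 (adjusted permutation p = 0.0013). Col2a1, the main cartilage fibril chain, ran from -0.85 through 0.06 to 2.03 and gave r = -0.0998 with Col11a1 (permutation p = 0.074, adjusted 0.0854). Col9a1 (-0.88, 0.05 and 1.26 at the lowest, median and highest array) and Col9a2 (-0.34, 0.03 and 1.06) encode chains of type IX collagen on the fibril surface. They had a weak negative correlation (r = -0.161, rho = -0.136, permutation p = 0.00434, adjusted 0.00542), which was -0.0304 without the arrays of outlying SD (adjusted p = 0.598). Col10a1, made by enlarging cartilage cells before bone forms, ran from -1.22 through 0.05 to 0.95. Col2a1 and Col11a2 correlated with each other (r = 0.57) and with the membrane collagen gene Col23a1 (0.56 and 0.82). Col6a4 correlated with Col23a1 (0.72), Col11a2 (0.60) and Col2a1 (0.44). The genes closest to Col2a1 were Dbn1 (0.94), which encodes an actin-binding protein of neurons, and Gria1 (0.92), a glutamate receptor subunit. Col2a1 and Col11a2 also moved with the SD of the array (r = 0.36 and 0.38), and the part of array spread in these values was not tested.

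Of the fibril-associated collagens, Col14a1 ran from -1.87 through a median of -0.05 to 1.11 and belonged with the interstitial chains. Its closest genes were Antxr1 (r = 0.85) and Antxr2 (0.84), which encode collagen-binding receptors, and Lum (0.84), a proteoglycan of collagen fibrils. Col12a1, which like Col14a1 decorates fibrils, ran from -1.07 through 0.06 to 0.97 and was correlated negatively with Col14a1 (r = -0.221, rho = -0.233, permutation p = 9e-05). Col12a1 was closest among collagens to Col4a3 (r = 0.65). Both also moved with the array median (r = 0.46 and 0.59), whereas Col14a1 gave -0.47, and the part of the array median in these relations was not tested by itself. The Col12a1 and Col14a1 value kept its sign and its side of the threshold with the medians subtracted. Col19a1, a further fibril-associated collagen, ran from -1.41 through 0.09 to 1.39 and was closest among collagens to Col7a1 (r = 0.36). Among all pairs of the 3 genes the mean r was 0.0416.

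The transmembrane collagens held both the most and the least variable collagen probes. Col17a1, the collagen that anchors keratinocytes in hemidesmosomes, had the largest SD of the 39 probes (0.858), ahead of Col1a1, Col1a2, Col11a1 and Col5a2. Its lowest, median and highest values were -1.73, -0.86 and 3.46, only 52 arrays lay above 0, and its arrays fell on separate sides with means 4.40 within-side SDs apart. The 5 smallest SDs belonged to a Col23a1 probe (0.12), Col25a1 (0.133), Col9a2 (0.154), Col11a2 (0.16) and Col4a3 (0.165). Col23a1 was read by probes ending in 689 (-0.27, 0.04 and 0.67 at the lowest, median and highest array) and in 964 (-0.55, 0.02 and 1.54), which correlated at r = 0.62. Col25a1, a membrane collagen known from neurons, ran from -0.46 through 0.04 to 0.48. Col13a1, a membrane collagen of the neuromuscular junction, ran from -0.71 through 0.06 to 0.86. The mean r of this class was -0.0406 over 6 pairs.

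Col8a1 and Col8a2 encode short-chain collagens that form hexagonal lattices beneath endothelia. They ran from -1.51 through a median of 0.02 to 1.16 and from -1.41 through 0.07 to 0.82, and correlated moderately (r = 0.336, rho = 0.355, permutation p = 1e-05). Col8a1 was closest among collagens to Col1a1 (r = 0.60), and Col8a2 to Col11a1 (r = 0.60). Col7a1, the anchoring fibril collagen of skin, ran from -0.82 through 0.11 to 1.04, and its closest genes, led by Ubqln4 (r = 0.65), were not collagens. Col26a1 ran from -0.90 through 0.03 to 0.96 and had no correlation over 0.5 with another collagen.

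Across classes, with gene-level values and so the average of its probes for Col1a2, 13 of the 34 collagen genes had r over 0.5 with at least 9 other collagen genes. They were Col1a1, Col1a2, the 3 type V genes, Col4a1, Col4a2, Col15a1, Col18a1, Col6a1, Col6a2, Col6a3 and Col14a1. Within this set, which was picked on these values, the 78 pairs had a median r of 0.692 and a lowest r of 0.392 (Col1a2 with Col5a3), and 73 pairs exceeded 0.5. Among the 21 other genes 9 of 210 pairs exceeded 0.5, with a median of 0.0242. The set crossed the structural classes. The mean r between fibrillar and type VI genes was 0.459 and between fibrillar and basement membrane genes 0.316, whereas between fibrillar and cartilage genes it was 0.0259. Over all 561 collagen pairs 15.2% exceeded 0.5 and 0.178% lay under -0.5, beside 4.79% and 3.15% of all gene pairs. The 13 genes had correlations with the array median between -0.58 (Col5a2) and -0.12 (Col6a1). The correlations of the 10 partner pairs with r over 0.3 kept their sign and stayed past the threshold with medians subtracted, with quantile normalization and with the first principal component removed. Fewer matrix-producing cells and less RNA per cell cannot be told apart in such whole-tissue values.

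**Figure D2:**
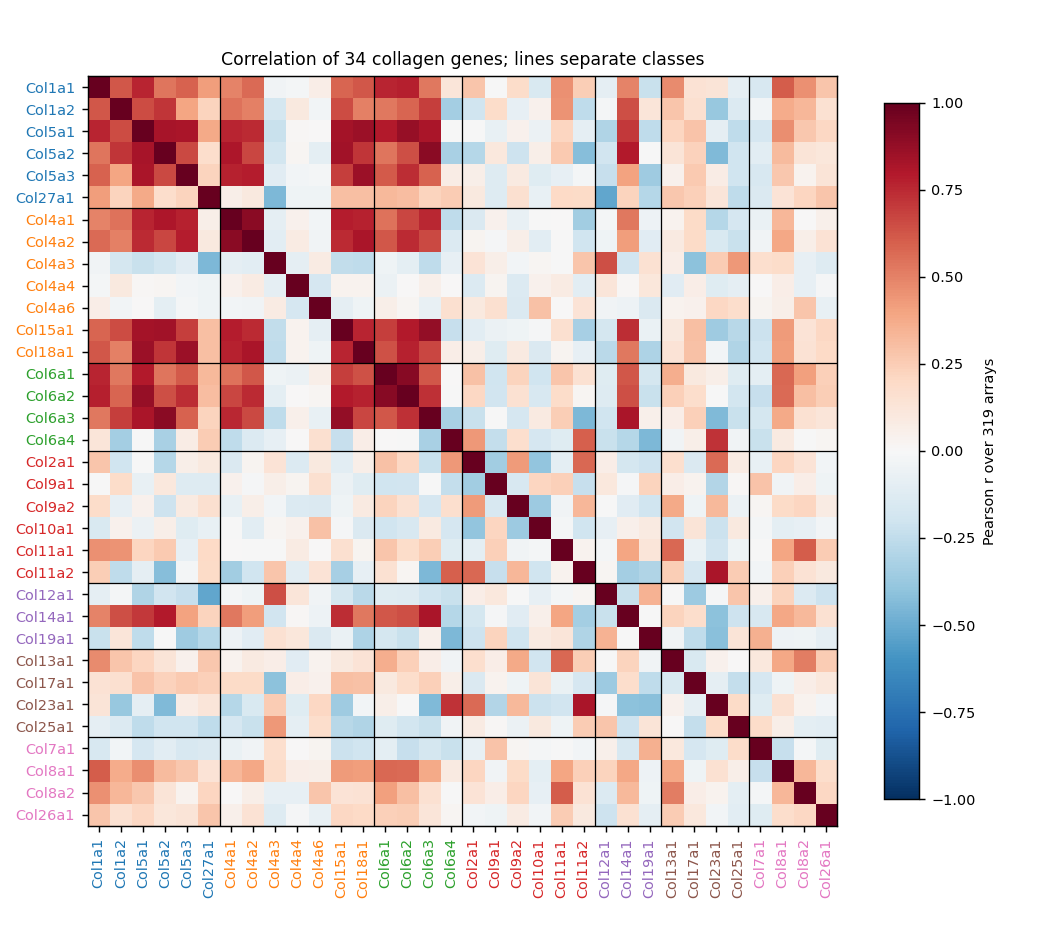
Pearson correlation over 319 arrays between the 34 collagen genes, with rows and columns in class order, black lines between classes and gene names in the colour of the class. The dark red blocks join the fibrillar genes other than Col27a1 with Col4a1, Col4a2, Col15a1, Col18a1, Col6a1, Col6a2, Col6a3 and Col14a1, and Col11a2 forms a separate red cell with Col23a1 (0.82).

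In all, 15 partner pairs were measured and 12 had an adjusted permutation p under 0.05, of which 10 were positive. The remaining positive ones joined different types. Col1a1 correlated with Col6a1 at r = 0.762 (rho = 0.742). Col4a1 and Col6a1 gave r = 0.544 (rho = 0.50), and Col1a1 and Col4a1 r = 0.494 (rho = 0.456). The permutation p of each was 1e-05 and the adjusted p over 15 pairs 1.5e-05. Leaving out those 2 arrays whose first chain lay farthest from its median moved Col6a1 with Col6a2 from 0.914 to 0.905. Col1a1 with the gene average of Col1a2 moved from 0.621 to 0.580. The array of animal 112 had 14 of the 39 collagen probes among their 5 lowest values, and without it those correlations were 0.906 and 0.593. Another extreme array, with 14 collagen probes among their 5 highest values, was not left out. Being adjacent did not by itself go with a high correlation: Col9a1 and Col19a1, neighbours on chromosome 1, gave r = 0.22.

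**Figure D3:**
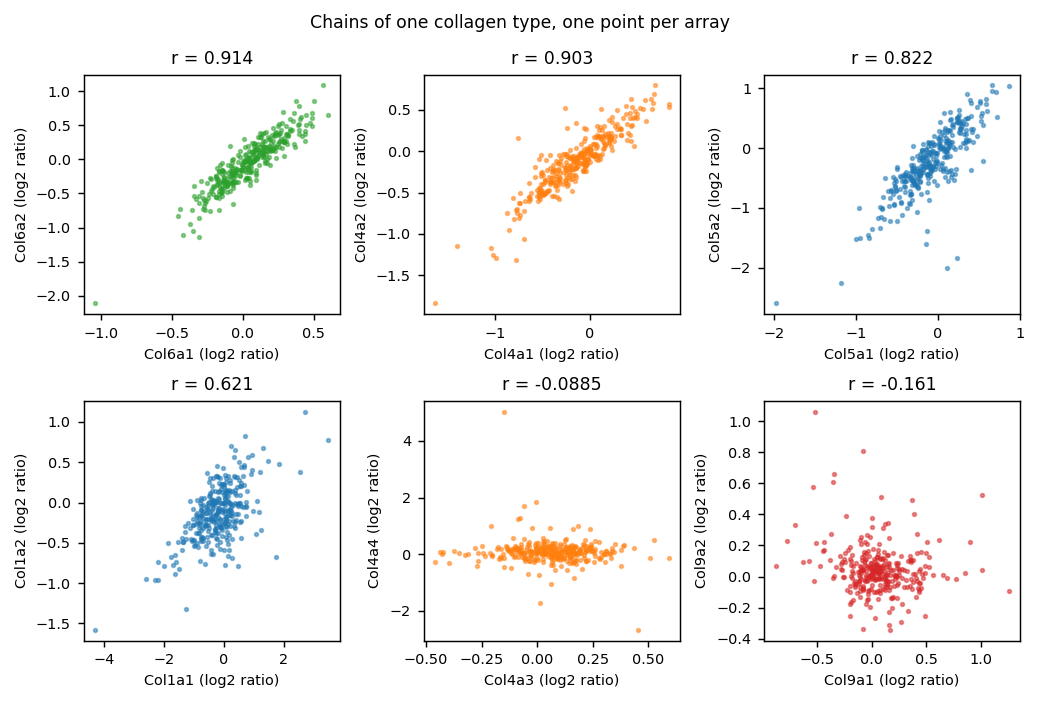
Log2 ratios of 6 pairs of chains of the same collagen type, 1 point per array and the Pearson r above each panel. Col1a2 is shown as its gene average. Points of Col6a1 with Col6a2 (0.914) and Col4a1 with Col4a2 (0.903) lie along a line, while Col4a3 with Col4a4 (-0.0885) and Col9a1 with Col9a2 (-0.161) show no line, the former with an array at 5.03.

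Non-collagen matrix markers varied together with many collagens over the arrays. A score of 13 non-collagen matrix genes, among them decorin and lumican, was the predictor in a limma fit of every probe. The Benjamini-Hochberg adjusted p was below 0.05 with a positive slope for 20 of 39 collagen probes, beside 17.5% of all probes, and with a negative slope for 12, beside 43.3%. An r over 0.5 was reached by 14 of 39 and by 2.43% of all probes. With the median of each array subtracted the split was 20 higher and 6 lower. Slopes below are in log2 units per 1 SD of the score. Col1a1 had the steepest positive slope (0.47 ± 0.034 SE, adjusted p = 3e-33), followed by Col5a2 (0.45 ± 0.017, adjusted p = 1.9e-78) and Col1a2 (0.45 ± 0.024, adjusted p = 3e-51). Col14a1 followed the score most tightly, with r = 0.87 and rank 4 among the probes tested. Negative slopes were shallow, led by Col7a1 (-0.08 ± 0.019, adjusted p = 7.1e-05), Col2a1 (-0.05 ± 0.023, adjusted p = 0.033) and Col12a1 (-0.05 ± 0.017, adjusted p = 0.0051). With the first principal component removed that of Col12a1 was 0.0062 and that of Col7a1 did not pass. The slope of Col2a1 did not pass under 5 alternatives, among them median subtraction and quantile normalization.

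Col4a1 and Col4a2 had the highest correlations with endothelial markers among the collagens. Of 39 collagen probes 18 increased with the endothelial score, beside 12.9% of all probes, and 1 decreased, beside 11.0%. With array medians subtracted 19 increased and 5 decreased. An r over 0.5 was reached by 2 of 39, beside 0.272%. Col4a2 had rank 7 among all probes tested by its r with this score (0.66, slope 0.24 ± 0.015, adjusted p = 4.5e-37) and Col4a1 rank 12 (0.61, slope 0.22 ± 0.016, adjusted p = 4e-31). Col4a1 had an r of 0.67 with adipocyte markers too, so its r with endothelial markers was not its highest. The steepest slope was that of Col1a1 (0.24 ± 0.04, adjusted p = 1.4e-07), at a lower r of 0.32. The probe that decreased was that of Col6a4 (-0.05 ± 0.012, adjusted p = 0.00071).

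Macrophage and adipocyte markers moved with many collagens and with most probes on the array. With the macrophage score 17 of 39 collagen probes increased, beside 21.4% of all, and 10 decreased, beside 53.6%. The split was 19 to 8 with array medians subtracted and 15 to 4 with the first principal component removed. An r over 0.5 was reached by 4 of 39, beside 7.5%, a share near the background. The steepest increases were in Col18a1 (0.30 ± 0.02, adjusted p = 3.6e-36), Col17a1 (0.29 ± 0.045, adjusted p = 1.4e-09) and Col5a2 (0.28 ± 0.026, adjusted p = 7.4e-23). The arrays of Col17a1 lay on separate sides, and its slopes on the macrophage score, the tendon score and animal number pooled both. The part of those sides in these slopes was not tested. Decreases were led by Col19a1 (-0.17 ± 0.018, adjusted p = 7.9e-18), the Col1a1 probe ending in 182 (-0.15 ± 0.018, adjusted p = 1.3e-14) and Col12a1 (-0.13 ± 0.016, adjusted p = 5.3e-15). With the first principal component removed the slopes of Col12a1 (0.0407, limma adjusted p = 0.020) and Col17a1 (-0.111, limma adjusted p = 0.035) passed with the opposite sign. That of Col19a1 (0.000678, limma adjusted p = 0.98) turned in sign without passing, and that of the probe ending in 182 did not pass. Col17a1 did not pass with quantile normalization (0.07, adjusted p = 0.175).

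With the adipocyte score 16 of 39 increased, beside 19.5% of all probes, and 14 decreased, beside 44.7%. The split was 18 to 10 with array medians subtracted and 16 to 9 with quantile normalization. Tighter relations, with r over 0.5, held for 8 of 39, beside 2.23%. The steepest slopes were those of Col5a2 (0.35 ± 0.023, adjusted p = 3.7e-37), Col18a1 (0.33 ± 0.019, adjusted p = 1.7e-47) and Col5a3 (0.32 ± 0.02, adjusted p = 6.1e-41). Col11a1 (-0.10 ± 0.031, adjusted p = 0.002), Col19a1 (-0.10 ± 0.019, adjusted p = 1.4e-06) and Col7a1 (-0.08 ± 0.019, adjusted p = 3.6e-05) decreased most. Col11a1 did not pass with animal number in blocks, and the other two did not with the first principal component removed.

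**Figure D4:**
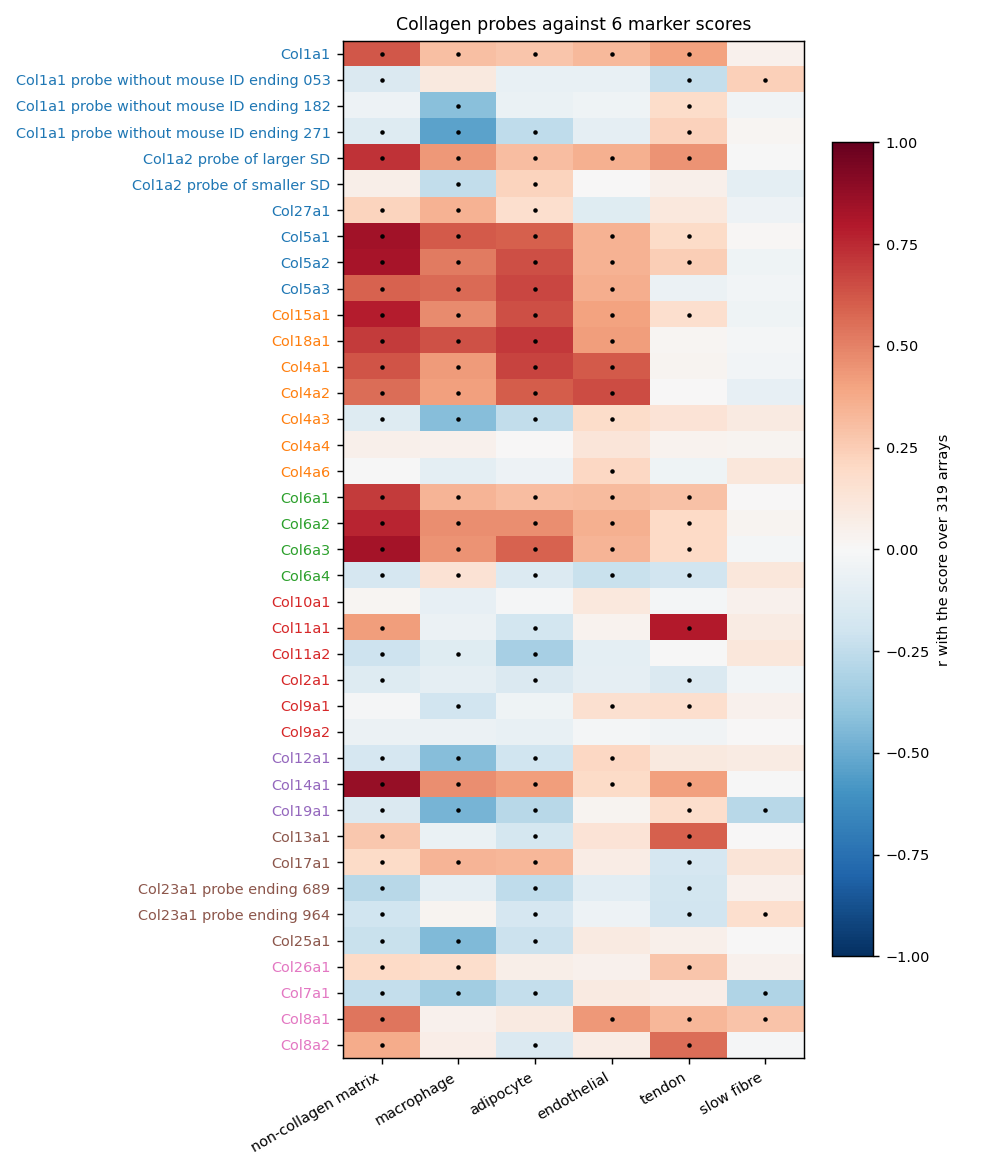
Correlation of the 39 collagen probes (rows, names coloured by class) with 6 marker scores (columns) over 319 arrays. Black dots mark a limma adjusted p under 0.05; Col14a1 is darkest in the matrix column (0.87), Col4a1 and Col4a2 in the endothelial column and Col11a1 in the tendon column (0.80).

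Tendon markers picked out other collagens. The score of 6 tendon genes rose with 18 of 39 collagen probes, beside 14.6% of all, and 6 decreased, beside 14.2%. The limit of r over 0.5 was passed by 3 of 39 (Col11a1, Col13a1 and Col8a2), beside 0.302%. The same 3 also had higher medians above than below the cartilage and bone split described next. The tendon fit pooled both sides of that split, and its part in these relations was not tested. Col11a1 had by far the steepest slope among collagens (0.45 ± 0.019, r = 0.80, rank 9 of the probes tested, adjusted p = 2.5e-68). Col1a1 followed (0.31 ± 0.039, adjusted p = 9.8e-12), then Col1a2 (0.27 ± 0.031, adjusted p = 8e-15). Col13a1 and Col8a2 had shallow slopes (0.11 ± 0.0081 and 0.12 ± 0.01) but tight ones (r = 0.60 and 0.56). The closest genes of Col11a1 were Ccn4 (r = 0.82), a secreted matricellular protein, Fmod (0.80), a fibril-binding proteoglycan, and Chad (0.77), a cartilage matrix protein. Chad also led the list of Col13a1 (0.63). The type IV genes had slopes near 0 (Col4a1 0.01 ± 0.02, adjusted p = 0.73; Col4a2 0.002 ± 0.02, adjusted p = 0.95). Among decreases were Col17a1 (-0.15 ± 0.048, adjusted p = 0.013), Col2a1 (-0.06 ± 0.023, adjusted p = 0.039) and the Col23a1 probe ending in 964 (-0.05 ± 0.014, adjusted p = 0.0049), and each of these 3 did not pass under 2 or more alternatives.

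Cartilage and bone markers split the arrays into 304 below and 15 above, and 15 was the fewest arrays that a side could hold. The size of the upper side was therefore set by that limit. No fit on this score was pooled over both sides. Ibsp, a bone matrix protein, had a median of -1.69 below and 3.03 above, and Acan, the cartilage proteoglycan aggrecan, of -0.14 and 1.80. The sides overlapped for Ibsp, with a highest array of 2.64 below and a lowest of 1.21 above. Other markers of the list differed little, among them Sp7 (0.07 and 0.09), Alpl (0.05 and 0.07) and Matn3 (0.07 and 0.15). Among collagens, Col1a1 had medians of -0.21 and 0.91, Col11a1 of 0.00 and 0.80, Col27a1 of -0.04 and 0.45, Col13a1 of 0.05 and 0.35 and Col2a1 of 0.05 and 0.29. Col1a2 had medians of -0.28 and 0.30, Col8a2 of 0.07 and 0.34 and Col8a1 of 0.01 and 0.29. The cartilage genes Col9a2 (0.03 and 0.08) and Col10a1 (0.05 and 0.05) moved little. Lower above the split were the medians of Col4a1 (-0.13 and -0.31), Col4a2 (-0.09 and -0.24), Col5a3 (-0.17 and -0.28) and Col17a1 (-0.84 and -1.04), among others. These are descriptions of sides drawn from the data. Over the 304 arrays 15 of 39 collagen probes increased with the score, beside 41.6% of all, and 8 decreased, beside 20.1%, so both shares lay near the background. Of these probes, r exceeded 0.5 for 1 of 39, beside 0.142%. With quantile normalization the split was 13 to 11. The 23 probes became 11 (11 higher and 0 lower) with the first principal component removed and 10 (6 higher and 4 lower) over arrays below the lymphocyte split. Col11a1 had the steepest slope (0.26 ± 0.025, adjusted p = 1.4e-20), then the Col1a1 probe ending in 182 (0.11 ± 0.02, adjusted p = 1.6e-07) and Col19a1 (0.11 ± 0.019, adjusted p = 1.6e-07). The steepest decreases were in Col17a1 (-0.24 ± 0.048, adjusted p = 4.9e-06), Col18a1 (-0.12 ± 0.027, adjusted p = 5.4e-05) and Col5a3 (-0.11 ± 0.027, adjusted p = 0.00023). With the first principal component removed the slopes of Col18a1 and Col5a3 were 0.0143 and 0.00337, and those of Col17a1, Col19a1 and the probe ending in 182 did not pass. Over the 15 arrays Col13a1 alone increased by the adjusted p of limma (0.24 ± 0.042, adjusted p = 0.024), beside 0.232% of all probes, none decreased, beside 0.0131%, and 10 of 39 had an r over 0.5, beside 3.39%. Col13a1 did not pass with quantile normalization (limma adjusted p = 0.085), animal number in blocks (0.991) or robust eBayes (0.116), and then 0 of 39 did. The count was 2 with array medians subtracted and 3 with the first principal component removed.

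Keratinocyte markers also divided the arrays, 285 below and 34 above. Col17a1 had a median of -0.91 on the 285 arrays (from -1.73 to 1.40) and of 1.10 on the 34 (from -1.61 to 3.46), so the sides overlapped. Krt14, a keratin of basal keratinocytes, had medians of -1.42 and 1.44. Within the sides Col17a1 correlated with Krt14 at r = 0.75 over the 285 arrays and r = 0.90 over the 34. Of the 11 markers, 4 had medians between 0.05 and 0.12 on both sides (Krt1, Dsc3, Sfn and Lgals7). Col7a1, the other skin collagen here, had medians of 0.13 and 0.09. Over the 285 arrays 5 of 39 collagen probes increased with the score, beside 27.6% of all, and 9 decreased, beside 16.5%. These 14 probes became 2 (1 and 1) with array medians subtracted, 17 (6 increased and 11 decreased) with quantile normalization and 9 (5 and 4) with the first principal component removed. Over arrays below the lymphocyte split they were 23 (8 and 15). The steepest increases were those of Col17a1 (0.10 ± 0.031, adjusted p = 0.0065), Col2a1 (0.08 ± 0.024, adjusted p = 0.0066) and Col11a2 (0.03 ± 0.0091, adjusted p = 0.0013), and the steepest decreases those of Col1a2 (-0.12 ± 0.035, adjusted p = 0.0037), Col5a2 (-0.11 ± 0.03, adjusted p = 0.0019) and Col18a1 (-0.09 ± 0.027, adjusted p = 0.0045). No collagen had an r over 0.5 on that side, beside 0% of all probes. Over the 34 arrays 0 of 39 increased by the limma threshold, beside 0.104% of all probes, and 0 decreased, beside 0.00431%. An r over 0.5 was reached by 1 of 39 (Col17a1, 0.52), beside 0.358%. The prior trend of limma gave Col17a1 an SE far above its slope on this side, so its missing call says little. Without the trend the count was 0 as well.

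**Figure D5:**
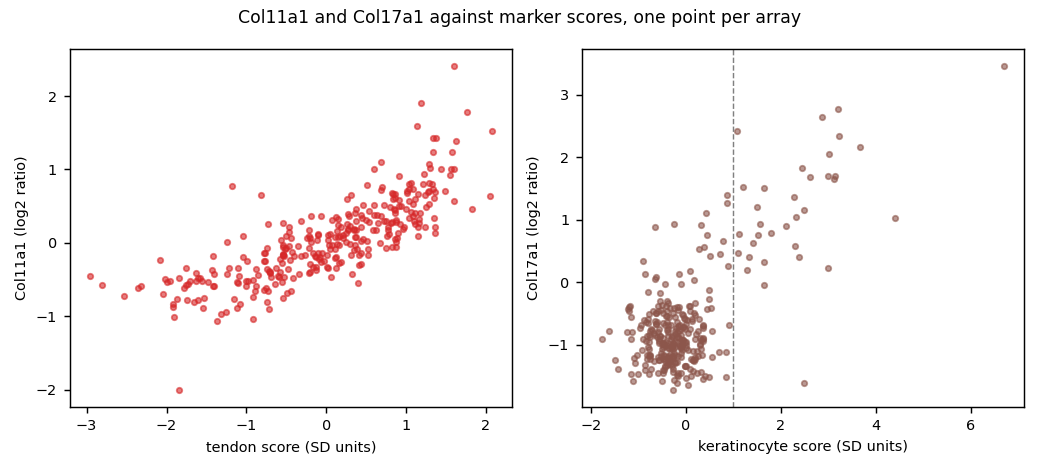
Log2 ratio of Col11a1 against the tendon score (left) and of Col17a1 against the keratinocyte score (right), 1 point per array and scores in SD units. Col11a1 climbs along the whole range (r = 0.80), while most arrays of Col17a1 lie in a cloud near its median of -0.91 left of the dashed split and those to the right reach 3.46.

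Slow muscle fibre markers had little relation to collagens. With that score 3 of 39 probes increased, beside 8.13% of all, and 2 decreased, beside 7.91%. None had an r over 0.5, beside 0.268%. Col8a1 (0.09 ± 0.017, adjusted p = 9.7e-06), the Col1a1 probe ending in 053 (0.04 ± 0.01, adjusted p = 0.0004) and the Col23a1 probe ending in 964 (0.04 ± 0.014, adjusted p = 0.018) increased. Col7a1 (-0.10 ± 0.018, adjusted p = 2.3e-06) and Col19a1 (-0.10 ± 0.019, adjusted p = 2.1e-05) decreased. With quantile normalization 8 increased and 3 decreased.

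Col1a1, Col4a1 and Col6a1 served as references for the rest of the family. With Col1a1 24 of 38 other collagen probes increased by limma, beside 16.4% of all probes, and 6 decreased, beside 25.2%. Tighter relations, with r over 0.5, held for 11 of 38, beside 0.604%. With quantile normalization the split was 20 to 2. Col1a2 (0.47 ± 0.022, adjusted p = 5.8e-60), Col6a2 (0.29 ± 0.013, adjusted p = 3.3e-63) and Col18a1 (0.29 ± 0.021, adjusted p = 2.6e-32) rose most. The Col1a1 probes ending in 182 (-0.12 ± 0.019, adjusted p = 4.1e-09) and 271 (-0.07 ± 0.012, adjusted p = 2.5e-07) and Col19a1 (-0.08 ± 0.019, adjusted p = 0.00036) fell. When Col1a1 was averaged over all 4 probes of that symbol, 21 of the 35 other probes increased, beside 12.8%, 1 decreased, beside 12%, and 9 had an r over 0.5, beside 0.194%. Col19a1 did not pass with quantile normalization.

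With Col4a1 15 of 38 increased, beside 18.6% of all, and 8 decreased, beside 41.3%. The limit of r over 0.5 was passed by 11 of 38, beside 2.01%. With quantile normalization the split was 14 to 4. The steepest were Col5a2 (0.44 ± 0.018, adjusted p = 2.6e-71), Col6a3 (0.38 ± 0.019, adjusted p = 2e-56) and Col1a1 (0.38 ± 0.037, adjusted p = 1.6e-19), ahead of Col4a2, whose slope was 0.33 ± 0.0088 at the highest r. Col2a1 (-0.06 ± 0.023, adjusted p = 0.015), the Col23a1 probe ending in 964 (-0.06 ± 0.014, adjusted p = 9e-05) and Col11a2 (-0.06 ± 0.0084, adjusted p = 1.3e-09) decreased. The first and second of these did not pass with quantile normalization. With Col6a1 21 of 38 increased, beside 17.9%, and 5 decreased, beside 23.9%. Of these probes, r exceeded 0.5 for 13 of 38, beside 0.906%. Col1a1 (0.58 ± 0.028, adjusted p = 8.1e-59) and Col1a2 (0.38 ± 0.027, adjusted p = 1.5e-33) had the steepest slopes, ahead of Col6a2. The Col1a1 probes ending in 182 (-0.12 ± 0.019, adjusted p = 4.2e-08) and 271 (-0.07 ± 0.012, adjusted p = 2e-06) and Col19a1 (-0.06 ± 0.02, adjusted p = 0.0051) decreased.

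The 10 genes nearest to Col1a1 were Pcolce (r = 0.79), which enhances the trimming of procollagen, then Col6a2, Col6a1, Col5a1, Mmp2 (0.75), a gelatinase, Tmem119, Ddah2, Thbs3, Fstl1 and Lrp1. Those of Col6a1 after Col6a2 were Pcolce (0.86), Mmp2 (0.83), Mfap2 (0.82), a microfibril protein, Cd248 (0.79), a fibroblast and pericyte surface protein, Thbs3, Col5a1, Fstl1, Tmem119 and Col1a1. For Col4a1, 7 of the 10 nearest were collagens (Col4a2, Col5a2, Col15a1, Col5a3, Col18a1, Col5a1 and Col6a3). The others were Sparc (0.78), a collagen-binding protein of basement membranes, Anxa2 (0.77) and Nid1 (0.77), the nidogen that joins laminin to type IV collagen.

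The machinery that makes and modifies collagen moved in part with Col1a1. Of 14 probes for synthesis and folding genes 8 increased with Col1a1, 2 decreased and 4 did not pass the threshold. Among all probes, 16.4% increased with Col1a1 and 25.2% decreased. The median r of the list was 0.235, beside -0.0116 over all genes. Serpinh1, the collagen chaperone HSP47, led with r = 0.66 (slope 0.25 ± 0.016, limma adjusted p = 1.6e-38), followed by the hydroxylase genes P3h3 (0.54) and Plod3 (0.46). P4ha3 (-0.17) and Creb3l1 (-0.14), a prolyl hydroxylase subunit and a transcription factor, decreased. Of 13 probes for procollagen processing and crosslinking 6 increased, 0 decreased and 7 did not pass (median r 0.164). Besides Pcolce these included Loxl1 (0.61), a lysyl oxidase with 1 of its 2 probes past the threshold, and Bmp1 (0.47), the procollagen C-proteinase, while Loxl4 (-0.03) and Tgm2 (-0.11) gave no call.

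Of 13 probes for genes of collagen breakdown and its inhibitors 8 increased with Col1a1, beside 16.4% of all probes. None decreased, beside 25.2%, and 5 did not pass (median r 0.283). The highest were Mmp2 (0.75), Fap (0.63), a fibroblast protease, and Timp1 (0.48), an inhibitor of matrix proteases. Prep (0.01) and Pepd (-0.04), peptidases of proline-containing peptides, lay lowest. Of 9 receptor genes 5 increased and 0 decreased (median r 0.262), with Itga11 (0.55), an integrin subunit of fibroblasts, Antxr2 (0.49) and Antxr1 (0.48) at the top and Itga2 (-0.003) and Ddr1 (-0.01) at the bottom. Of 16 genes of TGF-beta signalling 6 increased and 4 decreased, the latter near the background share of 25.2%, with a median r of -0.0371. Ltbp1 (0.40), Ccn2 (0.31) and Tgfbi (0.24) were highest and Ltbp4 (-0.30) and Smad4 (-0.25) lowest.

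With Col4a1 as reference, 7 of 13 probes for basement membrane partners increased, beside 18.6% of all probes, and 2 decreased, beside 41.3%. The other 4 did not pass (median r of the list 0.215, beside -0.0466 over all genes). Sparc, Nid1 and Nid2 (0.73) led, and the laminin chain genes Lamb1 (-0.28) and Lama5 (-0.13) decreased. Among all probes, 16.4% increased with Col1a1 and 25.2% decreased. Cell type markers had these counts with Col1a1: all 13 non-collagen matrix probes increased (Fstl1 0.71, Mfap2 0.71 and Sparc 0.67 at the top, Mfap5 0.30 and Ogn 0.22 at the bottom), as did 13 of 15 macrophage probes (Cd163 0.40, Csf1r 0.40 and C1qa 0.37, with Cd68 0.11 and Msr1 0.02 lowest), 6 of 10 adipocyte (with Cebpa, at -0.20, decreased), 7 of 11 endothelial and 5 of 6 tendon probes. Of 11 smooth muscle and pericyte probes 6 increased, led by Pdgfrb (0.59), and of 17 cartilage and bone probes 13 increased and 1 decreased. For Schwann cells 3 of 5 increased, for slow fibres 1 of 14, and for keratinocytes 1 of 15, with 2 decreased. These fits on Col1a1 used all 319 arrays, across both sides of the cartilage and bone and keratinocyte splits. Col1a1 itself had medians of -0.21 below and 0.91 above the cartilage and bone split. The part of that difference in the marker counts was not tested. None of the 12 lymphocyte probes passed the limma threshold with Col1a1, and the highest r of that list was 0.11 (Cd2).

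Animal number is the only number the labels give for each array. By limma 6 of 39 collagen probes increased with it, beside 18.9% of all, and 7 decreased, beside 11.7%. The split was 4 to 10 with array medians subtracted and 4 to 9 with quantile normalization, and 1 probe in all passed over the 263 arrays below the lymphocyte split. None had an r over 0.5, beside 0.0216%. In log2 units per 1 SD of the number, Col7a1 (0.09 ± 0.018, adjusted p = 5.2e-05), Col11a1 (0.09 ± 0.031, adjusted p = 0.018) and the Col1a1 probe ending in 271 (0.06 ± 0.013, adjusted p = 0.0003) increased. Col17a1 (-0.19 ± 0.047, adjusted p = 0.0012), Col1a2 (-0.12 ± 0.034, adjusted p = 0.0032) and Col18a1 (-0.08 ± 0.026, adjusted p = 0.012) decreased. All but Col7a1 did not pass with the first principal component removed.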

How the data were processed

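Each array gave 1 deposited log10 ratio per probe, animal against pool, from the authors' value table; the base follows from values that end at -2 and 2, and background correction, normalization and genome build are not given in the sources used here. Values were multiplied to the log2 scale. By the platform annotation 13639 probes had 1 symbol, 48 had several and 9695 had none. A gene ID in the RefSeq table (GRCm38.p6) named 12647. Probes of a gene were averaged. Collagen members and gene lists were chosen with earlier results of these data known. limma 3.58.1 (lmFit, eBayes with trend) fitted each probe on the standardised score, chain or animal number, with Benjamini-Hochberg adjustment over all probes at 0.05. Scores whose best split, with at least 15 arrays a side, separated the means by over 4 within-side SDs were fitted on each side. Partner chains were tested with 100000 permutations. On simulated slopes over 23190 probes, 99% of slopes of 0.25 and 86% of 0.1 were recovered and 10 unchanged probes called. The simulated noise was independent between probes and covered all 319 arrays. These rates therefore do not carry over to probes that share variation or to fits on a side of a split. The number of arrays limits precision. Named were the partner chains, the 5 largest and smallest SDs, up to 3 steepest slopes each way per predictor, the 10 genes nearest to 3 chains, and the 3 highest and 2 lowest of the lists of collagen biology, with cell type lists mostly given as counts. Genes named as closest to other collagens, and in descriptions of marker sides, were chosen after their values were seen. Alternatives were median or quantile scaling, removal of the first principal component, stricter and looser presence filters, limit values left out, arrays of outlying SD or above the lymphocyte split left out, animal number in 8 blocks, robust eBayes, the probe of largest SD, Spearman rho and a mixture spacing of 2.5.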

Additional observations from a re-analysis of the deposited data

How the results depend on the processing

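Of the counts of collagen probes past the limma threshold, the partner correlations, the class means and the mixture calls, 402 values under an alternative kept their direction and side of the threshold or stayed within the margin, 14 moved, 5 turned in sign, 5 passed the threshold newly and 1 no longer did. The cause was not tested for any of these. With array medians subtracted, the keratinocyte count below the split was 2 instead of 14, the cartilage and bone count above it 2 instead of 1, and Col4a3 with Col4a4 gave r = -0.135. Quantile normalization gave 11 probes instead of 5 for slow fibres, 0 for cartilage and bone above the split, 0.184 for Col11a1 with Col11a2, and a cartilage class mean of 0.00373. Removing the first principal component gave counts of 9 (keratinocyte below), 11 instead of 23 (cartilage and bone below), 3 (cartilage and bone above) and 2 instead of 13 (animal number), and Col2a1 with Col11a1 gave -0.117. The slopes that turned in sign there were Col12a1 on matrix (0.0062) and on macrophage (0.0407), Col17a1 (-0.111) and Col19a1 (0.000678) on macrophage, and Col18a1 (0.0143) and Col5a3 (0.00337) on cartilage and bone below. Over arrays below the lymphocyte split the counts were 8 (slow fibres), 23 (keratinocyte below), 10 (cartilage and bone below) and 1 (animal number), Col4a3 with Col4a4 gave -0.178 and the fibril-associated mean -0.0296. Without arrays of outlying SD, Col9a1 with Col9a2 gave -0.0304, Col11a1 with Col11a2 0.133, the cartilage mean 0.0237 and the fibril-associated mean -0.0260. Animal number blocks and robust eBayes each gave 0 for cartilage and bone above, and Spearman rho a cartilage mean of 0.00725.

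Chosen after seeing the data were the average of all 4 Col1a1 probes (22 probes past the threshold, beside 30), eBayes without a trend, which changed no count of the 14 predictors, and the omission of animal 112, which changed the side of the threshold of no partner correlation. Of the slopes of single probes, 707 values kept their call, 57 no longer passed and 6 turned in sign. The prior trend had given Col17a1 above the keratinocyte split an SE of 6.32 for a slope of 0.50. No paired analysis was possible because all arrays form 1 group.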
